A study of Mus musculus with 4 samples.

Results

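The genes described here are those through which dorsal root ganglion (DRG) neurons could sense or take up serotonin: the receptor genes Htr1a, Htr1b, Htr1d, Htr2b, Htr3a, Htr3b, Htr4 and Htr7, and the serotonin transporter gene Slc6a4. They were chosen by symbol, and all 9 were found among the 31053 genes of the count matrices. The study profiled single DRG neurons by droplet RNA sequencing on day 7 after the sciatic nerves had been loosely ligated (chronic constriction injury, CCI) or sham-operated, and asked how each type of sensory neuron responds to nerve injury. There was 1 library per sex and surgery (4 in all, labelled Male-Sham, Female-Sham and, for injured mice, Male-CCI and Female-CCI), and each pooled 20 L4-5 DRGs of 5 mice, so that a library is 1 sample and each surgery has n = 2. In what follows a pair of values gives the male library first and the female library second.

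All mice, sham included, were heterozygous PirtEGFPf animals on a C57BL/6 background aged 7 to 8 weeks, in which a membrane-bound EGFP replaces the coding sequence of 1 allele of Pirt, a gene used by most sensory neurons. Nerves were operated on both sides, and GFP-positive cells were sorted before encapsulation, so neurons that use the Pirt promoter weakly may be under-sampled. Constriction damages some axons of the sciatic nerve and spares others, whereas sham mice had no ligature. Littermates received the same surgery, so litter and surgery cannot be told apart, and the 2 samples of a surgery also differ in sex.

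Serotonin acts on sensory neurons through a ligand-gated cation channel, the 5-HT3 receptor, and through receptors coupled to G proteins. The channel is built from the subunit encoded by Htr3a alone or together with that of Htr3b, and it depolarises the cell. The receptors of Htr1a, Htr1b and Htr1d couple to Gi and lower cyclic AMP, those of Htr4 and Htr7 couple to Gs and raise it, and that of Htr2b couples to Gq and phospholipase C. The 5-HT1B and 5-HT1D receptors are targets of the triptan drugs used in migraine, and the transporter of Slc6a4 clears serotonin from outside the cell and is the target of fluoxetine and related antidepressants.

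On the mouse GRCm38 assembly (GENCODE vM21), Htr3a (chromosome 9, 48899213 to 48911099) and Htr3b (chromosome 9, 48935008 to 48964990) lie near each other on the minus strand. Slc6a4 (chromosome 11, 76998603 to 77032340), Htr1a (chromosome 13, 105443639 to 105448122) and Htr1d (chromosome 4, 136423524 to 136444398) are on the plus strand. Htr1b (chromosome 9, 81628291 to 81633828), Htr2b (chromosome 1, 86099026 to 86111970) and Htr7 (chromosome 19, 35958734 to 36057507) are on the minus strand. Htr1b, Htr2b, Htr3a and Slc6a4 each overlap 1 annotated gene on the other strand (D430036J16Rik, Psmd1, Gm32335 and Gm12343), which a strand-specific 3′ library keeps apart.

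After the filters 15715 cells remained of 23691 barcodes, and 15133 of them were neurons (3281 and 5398 sham, 2817 and 3637 CCI). Library totals ran from 195684124 to 237069156 unique molecular identifiers (UMIs), and the median neuron held 45172 and 32490 UMIs in sham and 56457 and 43527 in CCI. Levels are given in CPM, the counts (UMIs) of a gene scaled to a fixed total after adding up all cells of the group within 1 library, and since reads come from the 3′ end they compare 1 gene between cells and not genes with each other. Any 2 libraries shared 215 to 513 barcodes, and 904 of the cells used carried a shared one. Sprr1a, a gene that injured sensory neurons switch on, read 45.4 and 102 CPM in sham and 1926 and 1445 in CCI, and Atf3, an injury transcription factor, 131 and 161 against 723 and 729, so the libraries matched their surgery labels. Neurons over the study's Sprr1a limit, called Sprr1a-positive below, made up 1.28% and 2.67% of sham neurons and 52.1% and 49.2% of CCI neurons. Pirt itself read 584 and 576 in sham neurons and 399 and 415 in CCI neurons.

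Neuron classes were rebuilt by clustering and are called "-like" from their markers. NP1 (Nppb, Sst), NP2 (Mrgprd) and NP3 (Mrgpra3) are small non-peptidergic neurons, PEP1 to PEP5 are peptidergic or, in PEP5, Trpm8-bearing neurons, NF1 (Pvalb, Runx3, Ntng1) and NF2 (Ntrk2, Sema5a) are large neurons with myelinated axons, and cLTMR (Th, Slc17a8) are C-fibre low-threshold mechanoreceptors. A further group of clusters, CCI-induced (CCI-ind), was led by injury genes such as Anxa1, Tgfbi and Flnc and held 1.34% and 2.58% of sham neurons and 45.1% and 44.1% of CCI neurons. A cluster led by Rxfp1 and Calb1 stayed unnamed. Because clusters were made from these cells, levels by class are described without a test.

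Upstream sequence is shown for the transporter, the member that differed most with injury, and for Htr3b and Htr1d, which moved the other way or in both directions by class. The windows are the 250 bases before the RefSeq transcript start on GRCm38.p6, for Slc6a4 chr11:76998347-76998596 on the plus strand, for Htr3b chr9:48964991-48965240 on the minus strand, and for Htr1d the first of its listed starts, chr4:136423274-136423523 on the plus strand. Capitals mark the motif letters found by a search of both strands for AP-1 (TGANTCA), the cyclic AMP response element CRE (TGACGTCA) and its half-site (TGACG or CGTCA, which the full element contains).
Slc6a4: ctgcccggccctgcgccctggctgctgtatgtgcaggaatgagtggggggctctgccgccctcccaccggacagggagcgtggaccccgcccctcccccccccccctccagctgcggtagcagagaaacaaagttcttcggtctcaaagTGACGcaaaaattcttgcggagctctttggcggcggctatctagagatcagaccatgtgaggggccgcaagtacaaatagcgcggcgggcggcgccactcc
Htr3b: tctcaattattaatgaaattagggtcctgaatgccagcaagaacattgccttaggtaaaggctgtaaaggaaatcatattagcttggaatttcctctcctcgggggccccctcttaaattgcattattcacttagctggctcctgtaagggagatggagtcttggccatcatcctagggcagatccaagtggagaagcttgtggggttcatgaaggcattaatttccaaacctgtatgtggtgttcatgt
Htr1d: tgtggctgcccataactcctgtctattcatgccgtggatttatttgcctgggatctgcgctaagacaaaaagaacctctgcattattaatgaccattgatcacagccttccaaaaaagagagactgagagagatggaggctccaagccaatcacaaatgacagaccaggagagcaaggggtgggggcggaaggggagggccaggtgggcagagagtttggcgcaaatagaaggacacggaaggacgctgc
The Slc6a4 window held 1 half-site at -101 from the start, and those of Htr3b and Htr1d held none of the 3 motifs. Over all 32851 promoters of the same length the half-site was in 17.8%, AP-1 in 6.75% and CRE in 1.55%. Among the other members with a window, Htr7 held a half-site at -87 and Htr2b an AP-1 match at -163, and no member held the full CRE. A match is a description of these letters only.

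In sham neurons each member had its own set of classes. Htr3a, the obligatory subunit of the 5-HT3 channel, was highest in NF2-like neurons, at 199 and 188 CPM (194 ± 7.34, SD, n = 2), and 100% and 93.6% of these cells held at least 1 UMI. PEP1-like neurons (56.3 ± 1.82) and NF1-like neurons (56.2 ± 0.957) followed and overlapped each other, then PEP2-like (33.6 ± 0.272) and NP3-like neurons (32.1 ± 1.101), and every other neuronal class was at 1.84 or below. These class means average clusters that differ. Of the 2 NF1-like clusters, the one led by Ntng1 read 80.1 and 73.9 and the one led by Pvalb, the proprioceptor marker, 1.96 and 2.44. In PEP2-like neurons the cluster with Col25a1 among its leading genes read 68.7 and 59.8 and the one led by Dcn 0.482 and 0.533, and the 3 PEP1-like clusters read 78.9 and 77.2 (led by Cldn9), 49.1 and 54.4 (led by Oprk1) and 5.85 and 6.10 (led by Fgg). Satellite glia-like cells, which should lack the gene, held an Htr3a UMI in at most 1.61% of cells, at a median depth of 5125 UMIs in that library against 45172 in its neurons.

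Htr3b, the accessory subunit that changes the channel's conductance, had a different order. It was highest in NF1-like neurons (14.1 and 14.9 CPM, 14.5 ± 0.563), where the Ntng1 cluster read 20.5 and 19.5 and the Pvalb cluster held 1 UMI per library, followed by NP3-like neurons (9.96 ± 0.559), and by NF2-like (7.75 ± 0.636) and NP2-like neurons (7.65 ± 0.359), which overlapped. Both subunits were detected in the same cells of the myelinated classes: of Htr3b-bearing cells in sham, 93.7% and 78.8% of NF1-like and 100% and 95.2% of NF2-like cells also held an Htr3a UMI. The shares were 85.1% and 83.8% in PEP1-like, 62.8% and 60% in NP3-like and 11.3% and 11.5% in NP2-like neurons. Of all sham cells, 54.7% and 59.4% of NF1-like and 100% and 93.6% of NF2-like ones held an Htr3a UMI. So did 36.9% and 37.6% of PEP1-like, 45.8% and 47.1% of NP3-like and 5.43% and 5.25% of NP2-like cells. In NF2-like neurons the share among Htr3b-bearing cells was thus close to that of the whole class. The order of the classes partly follows Htr3a itself. NP2-like neurons, the Mrgprd-bearing cells, were therefore the class with Htr3b but little detected Htr3a.

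The Gi-coupled receptors divided the remaining classes. Htr1a was highest in NP1-like neurons (87.4 and 66.7 CPM, in 88.6% and 81.4% of cells), then in PEP1-like (27.7 ± 2.31) and PEP3/4-like neurons (13.5 ± 2.79), and the next classes, NP3-like, PEP2-like and NF2-like at means of 4.70 to 3.76, overlapped. Htr1b was highest in PEP1-like neurons (48.5 and 50.7, in 78.3% and 73.8% of cells). PEP3/4-like (41.4 ± 0.414) and NF2-like neurons (38.9 ± 3.68) came next and overlapped, ahead of PEP2-like neurons (29.8 ± 2.75). Htr1d, the other triptan target, was concentrated elsewhere, in NF1-like neurons (92.2 and 89.4, in 93.9% and 95.2% of cells), with 106 and 99.2 in the Ntng1 and 62.4 and 58.1 in the Pvalb cluster, and with cLTMR-like neurons at 27.9 ± 1.35, the Calb1 cluster at 22.6 ± 3.96 and the few sham neurons of CCI-induced clusters at 14.3 ± 1.45. The classes with most Htr1b thus had little Htr1d, with 0.0762 CPM in PEP1-like neurons.

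The Gs-coupled pair were each narrow. Htr4 was highest in NP2-like neurons (17.1 and 18.2 CPM, in 61.1% and 55.5% of cells) and reached 4.82 ± 0.0376 in cLTMR-like and 3.05 ± 0.454 in NP3-like neurons. Htr7 was highest in NF1-like neurons (19.8 and 22.03, in 68.2% and 72.1% of cells), then in the Calb1 cluster (16.4 ± 0.00502) and NF2-like neurons (9.13 ± 2.31), and was at 1.06 in cLTMR-like neurons. Htr2b was all but undetected, with 1 UMI in all sham neurons. Slc6a4, the transporter, was low in every other class (1.18 ± 0.329 in NP1-like neurons and at most 0.0414 in the rest) and stood at 16.2 and 14.2 in the 44 and 139 sham neurons that fell into CCI-induced clusters. Of the sham NP1-like neurons 5.68% and 17.4% were Sprr1a-positive. Their Slc6a4 UMIs were all in the cluster led by Cd207 (4 and 5 UMIs, 10.7 and 4.64 CPM), with 0 in the cluster led by Sst and Nppb. In satellite glia-like cells no Slc6a4 UMI was counted in any library (0 of 186, 145, 118 and 109 cells), but at their depth a count of 0 allows 2.69 to 5.39 CPM, so a lower background could not be seen.

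**Figure D1:**
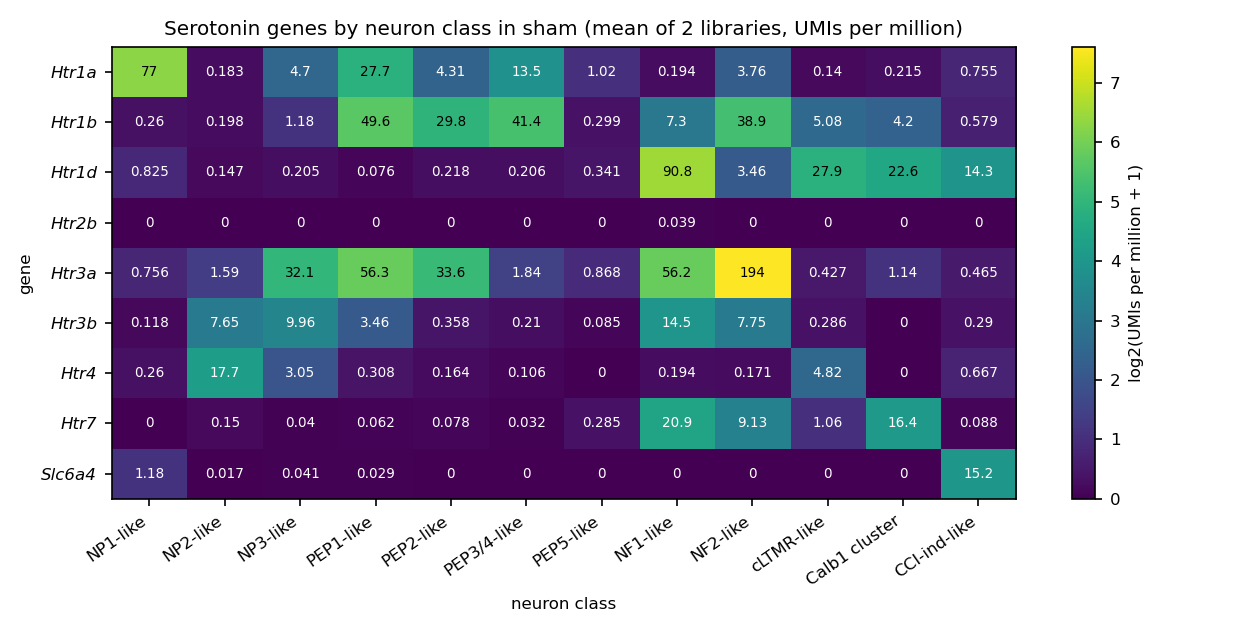
Heat map of the members (rows) by neuronal class (columns), coloured by log2 of the mean CPM plus 1 over the 2 sham libraries. Htr3a peaks in NF2, Htr3b, Htr1d and Htr7 in NF1, Htr1a in NP1, Htr1b in PEP1 and Htr4 in NP2, whereas Slc6a4 is above 2 CPM only in the column of CCI-induced clusters, whose sham cells number 44 and 139.

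To place each member among other genes, Pearson's r of log2 levels was taken over 22 sums (the 11 named classes in 2 sham libraries) against 12108 genes, as a description. The genes most like Htr3a were Vat1l (r = 0.948), Itfg1 (0.911) and Wdfy2 (0.897), those most like Htr3b were Slitrk4 (0.920), Mpzl3 (0.916) and Capn1 (0.892), and those most like Htr7 were Slc17a7 (0.972), Ptgfr (0.969) and Adgrb2 (0.959). Among the genes most like Htr1a were Gcnt7 (0.948) and Lyn (0.922), and Htr1d was most like Lgi2 (0.967), Abcb1a (0.954) and Cbln2 (0.943). The gene after Slk (0.960) for Htr1b was D430036J16Rik (0.960), which overlaps Htr1b on the other strand, followed by Kcnj2 (0.925). Htr4 was most like Serpina1e (0.980), Gm16364 (0.968) and Ms4a3 (0.964). The neighbours of Slc6a4 (Gm29374 0.998, Trdc 0.995, Prss56 0.991) rest on the CCI-induced clusters alone, the points in which these genes are high.

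Across all neurons, the transporter was far higher after CCI and most receptors were lower. Slc6a4 read 0.271 and 0.475 CPM in sham and 13.9 and 10.0 in CCI (log2 fold change 5.03, SE 0.309, edgeR adjusted p = 0.000305), and the share of neurons with a UMI went from 0.549% and 0.889% to 22.5% and 17.2%. Both CCI libraries lay above both sham libraries. Of the 8 members tested, 6 passed the adjusted p of 0.05 and the log2 fold limit of 0.5, Slc6a4 higher and 5 receptors lower. Over all 17232 genes tested, 15.2% were called higher and 12.7% lower, and the median log2 fold change was -1.04 over the members and -0.01 over all genes.

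Both channel subunits fell together. Htr3a went from 26.0 and 23.4 CPM to 12.3 and 9.12 (log2 fold change -1.15, SE 0.152, adjusted p = 0.0021) and Htr3b from 4.30 and 3.60 to 1.95 and 1.60 (-1.096, SE 0.141, adjusted p = 0.000798). Htr1a, the 5-HT1A autoreceptor of brain serotonin neurons, fell from 9.99 and 9.78 to 4.46 and 5.17 (-0.98, SE 0.0807, adjusted p = 0.000118). Both Gs-coupled receptors fell too, Htr4 from 4.24 and 3.79 to 1.28 and 1.21 (-1.63, SE 0.113, adjusted p = 6.27e-05) and Htr7 from 2.39 and 1.78 to 1.14 and 0.725 (-1.097, SE 0.249, adjusted p = 0.0112).

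The triptan targets differed least. Htr1b read 19.2 and 21.7 in sham and 13.1 and 16.6 in CCI (log2 fold change -0.41, SE 0.126, adjusted p = 0.0374), and Htr1d 11.4 and 9.76 against 8.80 and 8.01 (-0.27, SE 0.0886, adjusted p = 0.0371). Sham and CCI libraries did not overlap for either gene, but both changes are under the fold limit. Without the Female-CCI library Htr1b passed it (-0.59, adjusted p = 0.00691). Htr2b had 1 UMI in sham and 20 in CCI neurons, a ratio of 21.8 (95% counting interval 3.49 to 904), and was too low to be tested.

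**Figure D2:**
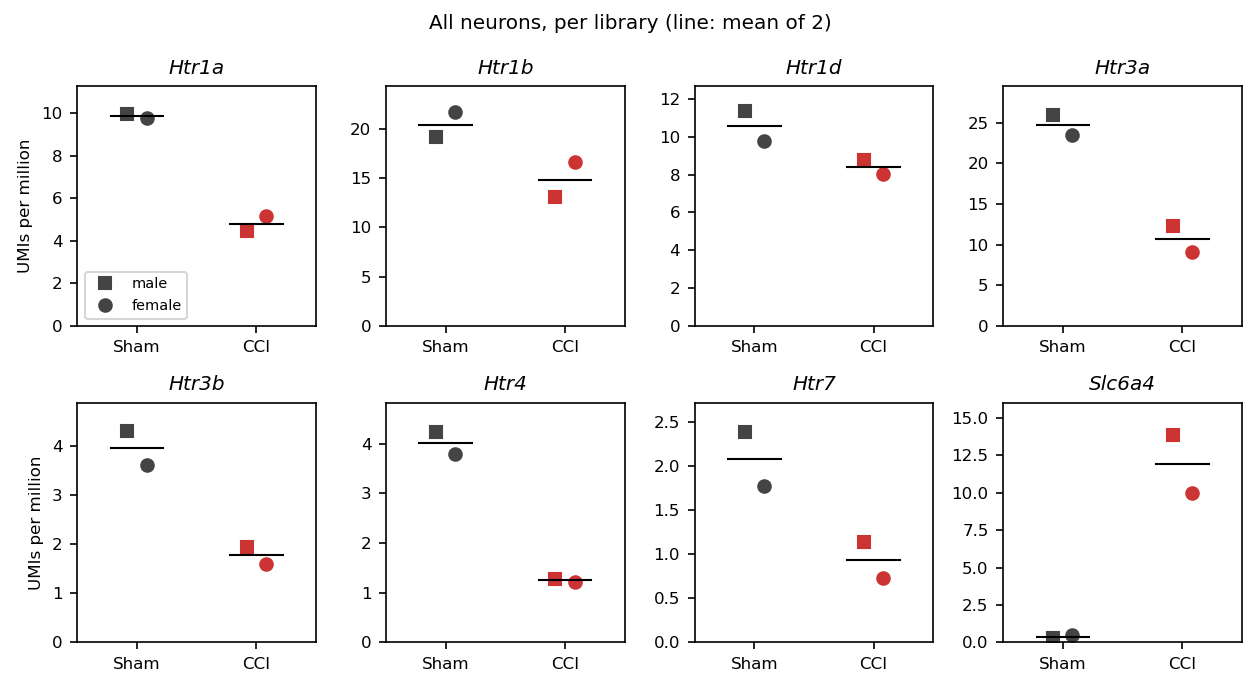
Each panel plots 1 member in all neurons, with CPM on a linear y axis from 0, sham and CCI on the x axis, 1 point per library (marker shape gives sex) and a line at the mean of 2 libraries. Slc6a4 lies at 0.271 and 0.475 in sham and 13.9 and 10.0 in CCI, and the 2 CCI points lie below the 2 sham points for Htr3a, Htr3b, Htr1a, Htr4 and Htr7, and by less for Htr1b and Htr1d.

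Several other measures moved with the surgery. The share of CCI-induced clusters was given above, and the classes' own shares shifted with it: NP2-like neurons were 14.0% and 10.9% of sham neurons and 5.22% and 4.65% of CCI neurons. The summed level of the 6 satellite glia markers in neurons was 1321 and 1640 CPM in sham and 877 and 1076 in CCI, with none of the 6 at 0 and Apoe the highest, whereas the 8 immune markers summed to 10.9 and 5.79 against 8.03 and 9.14. Their part in the members' differences was not tested. The mast cell markers, which would mark cells that store serotonin, summed to at most 0.561 in any library. The 4 platelet markers summed to 8.55 and 8.17 CPM in sham and 5.53 and 5.30 in CCI, with Itga2b the highest in each library. The part of either list in the members' values was not tested.

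The next comparison took the neurons under the Sprr1a limit. These cells are not free of injury transcripts: in Sprr1a-negative neurons Sprr1a itself read 0.470 and 1.24 CPM in sham and 23.1 and 27.0 in CCI, Atf3 113 and 127 against 175 and 200, and the injury neuropeptide gene Gal 329 and 360 against 451 and 588. The part of injured cells under the limit, or of free RNA, in the values that follow was not tested. In Sprr1a-negative neurons 2 of 8 members were called. Slc6a4 rose from 1 and 6 UMIs (0.00626 and 0.0327 CPM) to 39 and 58 UMIs (0.522 and 0.732), a log2 fold change of 4.86 (SE 0.494, adjusted p = 0.00428). Its level in these cells was far below that in Sprr1a-positive CCI neurons (25.2 and 19.1), and 2.44% and 2.11% of them held a Slc6a4 UMI. Htr4 fell from 4.29 and 3.90 to 2.61 and 2.40 (-0.73, SE 0.109, adjusted p = 0.00918). Over the 16406 genes tested, 3.23% were called higher and 1.24% lower. Without the Female-CCI library Htr4 lost its call (adjusted p = 0.0505), and with predicted doublets kept Slc6a4 lost its call (log2 fold change 3.15, adjusted p = 0.0576).

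No other member was called in these neurons. Htr1a read 10.1 and 10.0 in sham and 9.42 and 10.0 in CCI (-0.07, adjusted p = 0.459), and the log2 fold changes of Htr3a (-0.22, adjusted p = 0.517), Htr3b (-0.16, adjusted p = 0.517), Htr7 (-0.28, adjusted p = 0.520), Htr1b (0.39, adjusted p = 0.0760) and Htr1d (-0.41, adjusted p = 0.0256) were all under the fold limit. The members' median was -0.19 against 0.00 over all genes. This comparison uses the same 4 libraries as that of all neurons, so both sets of values are not independent.

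Within the CCI libraries, Sprr1a-positive neurons held nearly all the transporter and little of most receptors. Slc6a4 read 0.522 and 0.732 CPM in Sprr1a-negative neurons and 25.2 and 19.1 in Sprr1a-positive neurons (log2 fold change 5.30, SE 0.160, adjusted p = 7.89e-07). Of all Slc6a4 UMIs in CCI neurons, 98.3% and 96.4% were in Sprr1a-positive cells, which held 54.1% and 50.4% of all UMIs. In sham the few Sprr1a-positive neurons, 42 and 144 cells with 1.55% and 3.17% of the UMIs, held 97.7% and 93.3% of the Slc6a4 UMIs. The UMIs of the transporter were thus concentrated in Sprr1a-positive cells after both surgeries, and 41.0% and 32.8% of Sprr1a-positive CCI neurons held a UMI of it.

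In this comparison 7 of 8 members were called, against 20.9% of the 16240 genes tested called higher and 24.7% lower, with a median of -3.79 over the members and 0.00 over all genes. The channel subunits were the most reduced, Htr3a at 26.4 and 17.9 in Sprr1a-negative and 0.409 and 0.533 in Sprr1a-positive neurons (log2 fold change -5.38, SE 0.164, adjusted p = 4.03e-07) and Htr3b with a change of -6.07 (SE 0.262, adjusted p = 6.88e-09). Htr1a went from 9.42 and 10.0 to 0.2499 and 0.385 (-4.77, SE 0.146, adjusted p = 5.19e-10) and Htr1b from 25.1 and 30.8 to 2.88 and 2.77 (-3.12, SE 0.0872, adjusted p = 4.53e-09). Htr4 fell from 2.61 and 2.40 to 0.159 and 0.0496 (-4.37, SE 0.296, adjusted p = 5.63e-07) and Htr7 also fell (-3.20, SE 0.242, adjusted p = 6.01e-07). For each of these genes both Sprr1a-positive sums lay below both Sprr1a-negative sums.

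Htr1d was the exception. It read 8.36 and 7.66 in Sprr1a-negative and 9.17 and 8.36 in Sprr1a-positive neurons (log2 fold change 0.30, SE 0.0693, adjusted p = 0.00238, under the fold limit), and 56.4% and 52.6% of its UMIs were in Sprr1a-positive cells, close to their share of all UMIs. For comparison, Sprr1a-positive cells held 1.79% and 2.95% of Htr3a and 11.9% and 8.38% of Htr1b UMIs. Htr2b had 2 UMIs in Sprr1a-negative and 18 in Sprr1a-positive CCI neurons, a ratio of 8.21 (counting interval 1.97 to 73.0). Sprr1a-positive and Sprr1a-negative neurons differ in class makeup, since most of the former are in CCI-induced clusters, and Pirt was at 209 and 199 in the former; the part of either in these differences was not tested at the level of all neurons.

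These values depend on where the Sprr1a limit is drawn. Counting any Sprr1a UMI as positive made 83.4% and 80.1% of CCI neurons positive, but also 22.03% and 23.9% of satellite glia-like cells of the same libraries, which should lack the gene. The main limit is not free of this either, since it marked 14.4% and 14.7% of these satellite glia-like cells. When any Sprr1a UMI counted as positive, Slc6a4 was still higher in positive neurons of CCI (log2 fold change 5.08, adjusted p = 1.63e-26). Of all genes, 14.5% were called higher and 14.9% lower. Htr1a (-1.30), Htr1b (-1.02) and Htr4 (-0.78) were still lower. Htr3a (0.06, adjusted p = 0.551), Htr3b (-0.26, adjusted p = 0.230) and Htr7 (-0.05, adjusted p = 0.887) were not called, and Htr1d was called higher (0.58). Among the neurons with no Sprr1a UMI, 6 of 8 members were called between CCI and sham, against 3.63% of all genes called higher and 2.34% lower. Htr3a (-1.18), Htr3b (-0.86), Htr7 (-1.08) and Htr1d (-0.75) were lower beside Htr4, and Slc6a4 was higher. Whether a cell shows no UMI also depends on its depth. The median CCI cell held 89462 and 62133 UMIs in NF1-like but 27463.5 and 25111 in PEP5-like neurons. The part of depth and class makeup in these calls was not tested. With a stricter limit of 2 the members' calls did not differ from those at 1.

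**Figure D3:**
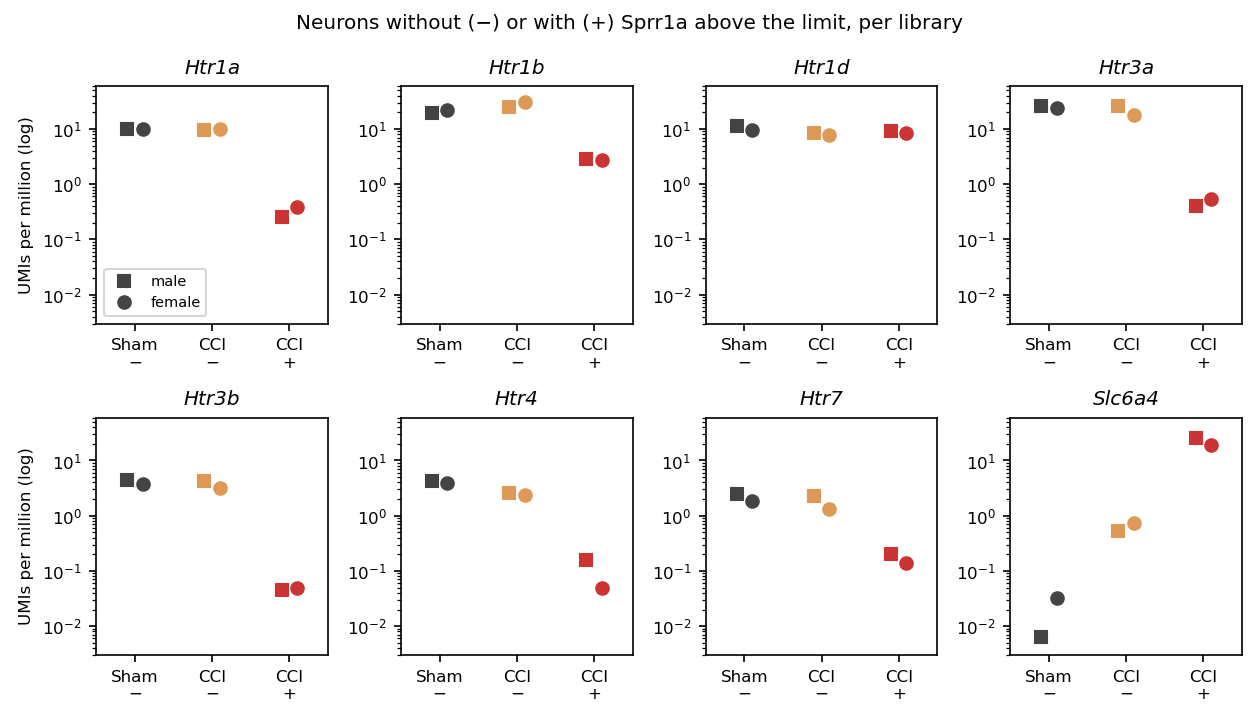
Each panel plots 1 member in Sprr1a-negative sham, Sprr1a-negative CCI and Sprr1a-positive CCI neurons, with CPM on a log y axis and 1 point per library. Both Sprr1a-positive points lie far below the others for Htr3a, Htr3b, Htr1a, Htr1b, Htr4 and Htr7, beside them for Htr1d (9.17 and 8.36) and far above them for Slc6a4 (25.2 and 19.1).

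The comparison could be made within a class for the 3 classes with at least 10 Sprr1a-positive neurons in each CCI library, NF1-like (55 and 32 cells in CCI), NF2-like (80 and 80) and NP1-like (98 and 113). NP1-like cells came mostly from 1 cluster in sham (led by Sst and Nppb, 82 and 63 of 88 and 86 cells) and mostly from another in CCI (led by Cd207 and Cavin1, 103 and 123 of 129 and 148 cells), so NP1 values compare these clusters too. Against Sprr1a-negative sham neurons of the same class, 14 of 16 member-by-class values were called. Among all genes 45.5% were called in NF1-like, 43.6% in NF2-like and 41.6% in NP1-like neurons, in either direction. The count filter keeps a gene with enough UMIs in either group, here and in the later comparisons by class. Slc6a4 in these classes and Htr1d in NP1-like neurons passed it through the Sprr1a-positive sums alone. Their calls, and the number called, are therefore not independent of the filter.

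In NF1-like neurons the transporter rose from 0 and 4 receptors fell. Slc6a4 had 0 UMIs in both sham libraries and 86.8 and 49.4 CPM in Sprr1a-positive CCI neurons, at least 593-fold higher when 3 UMIs over both sham libraries together are taken as their limit (adjusted p = 0.00220), with a UMI in 72.7% and 68.8% of cells. The Sprr1a-negative NF1-like neurons of the same CCI libraries held 1 UMI each. Htr3a fell from 55.5 and 56.9 to 1.55 and 1.18 (log2 fold change -4.93, SE 0.239, adjusted p = 1.72e-09) while Sprr1a-negative CCI cells read 59.3 and 34.8. Htr3b went from 337 UMIs to 2, 45.0-fold lower (counting interval 12.4 to 373, adjusted p = 1.17e-06).

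The other receptors of this class fell by less. Htr7 went from 19.8 and 22.03 to 2.66 and 1.18 (-2.88, SE 0.293, adjusted p = 2.10e-06) and was at 19.5 and 16.8 in Sprr1a-negative CCI cells. Htr1d, which was highest in this class in sham, fell from 92.2 and 89.4 to 18.9 and 21.7 (-1.87, SE 0.127, adjusted p = 4.14e-08), with 70.5 and 75.3 in Sprr1a-negative CCI cells, and 60% and 59.4% of Sprr1a-positive cells still held a UMI of it. Htr1b, at 5.88 and 8.73 in sham and 5.99 and 11.8 in Sprr1a-positive neurons, was not called (0.44, adjusted p = 0.281). The NF1-like clusters differed here too, since over all their cells Htr1d read 42.2 and 56.2 in CCI in the Ntng1 cluster, down from its sham values above, and 61.8 and 59.4 in the Pvalb cluster. The part of the mix of clusters in the class values was not tested.

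In NF2-like neurons 6 of 7 tested members were called. Htr3a, which marks nearly every cell of the class in sham, fell from 199 and 188 to 1.48 and 0.435 (log2 fold change -7.22, SE 0.224, adjusted p = 9.59e-09), and the share of cells with a UMI went to 12.5% and 2.5%. Htr3b went from 8.20 and 7.30 to 0 UMIs in both libraries, at least 31.1-fold lower (adjusted p = 3.03e-05). Htr1b was less affected, at 41.5 and 36.3 against 16.7 and 15.7 (-1.02, SE 0.144, adjusted p = 0.000190), and 61.2% and 45.0% of Sprr1a-positive cells still held a UMI.

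The remaining NF2 values had few UMIs. Htr7 fell from 10.8 and 7.49 to 0.270 and 0.435 (-4.46, SE 0.481, adjusted p = 3.13e-05) and Htr1a from 42 UMIs to 3, 15.2-fold lower (counting interval 4.86 to 76.7, adjusted p = 0.00154). Slc6a4 rose from 0 UMIs to 11.7 and 9.35 CPM, at least 39.9-fold higher (adjusted p = 7.82e-06), in 45.0% and 27.5% of cells. Htr1d, which is sparse in this class, read 3.08 and 3.84 against 2.70 and 4.35 (0.21, adjusted p = 0.660).

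In NP1-like neurons 3 of the 9 members passed the count filter, and all 3 were called. Htr1a, the receptor that is highest in this class in sham, fell from 95.7 and 80.5 to 1.86 and 3.65 (log2 fold change -4.96, SE 0.191, adjusted p = 3.10e-28). Htr1d, absent from nearly all of these cells in sham, rose from 2 UMIs to 117, or from 0 and 0.716 to 8.74 and 8.90 CPM, a ratio of 29.3 (counting interval 7.93 to 245, adjusted p = 2.01e-10). A UMI of Htr1d was found in 39.8% and 33.6% of the Sprr1a-positive cells. The clusters of this class differed, since over all cells the Sst and Nppb cluster held 0 Htr1d UMIs in every library. The Cd207 cluster read 2.67 and 4.64 CPM in sham (1 and 5 UMIs) and 8.87 and 8.45 in CCI. The part of this mix of clusters in the class value was not tested. Slc6a4 went from 2 UMIs to 56, or from 0 and 0.716 to 4.01 and 4.45 CPM, a ratio of 14.0 (counting interval 3.71 to 119, adjusted p = 6.47e-06).

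With any Sprr1a UMI counted as positive, 2 of these calls were lost, Htr3a in NF1-like (-0.98, adjusted p = 0.2499) and Htr1b in NF2-like neurons (-0.44, under the fold limit).

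Htr1d thus fell in NF1-like and rose in NP1-like neurons, and the differences between classes were tested in 1 model. It held library as a block, class, and the interaction of class with group, so the classes of a library were compared within that library. The Htr1d change was higher in NP1-like than in NF1-like neurons by 6.72 (log2, adjusted p = 6.87e-11) and than in NF2-like neurons by 4.64 (adjusted p = 1.52e-05), and lower in NF1-like than in NF2-like neurons by 2.08 (log2 difference -2.08, adjusted p = 0.000187). Between NF1-like and NF2-like neurons the fall of Htr3a was smaller in NF1 by 2.14 (adjusted p = 0.0146) and the change of Htr1b was higher in NF1 by 1.44 (adjusted p = 0.0244). In NP1-like Sprr1a-negative sham neurons Htr1d held at most 4 UMIs, so the sizes of its differences with NP1-like neurons depend on the prior count. Further differences were called for Slc6a4, Htr3a, Htr3b and Htr7 where a group held at most 4 UMIs, and their sizes depend on the prior count too. Of all genes, 29.3% differed in this way between NP1 and NF1, 22.7% between NP1 and NF2 and 16.9% between NF1 and NF2, in either direction.

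**Figure D4:**
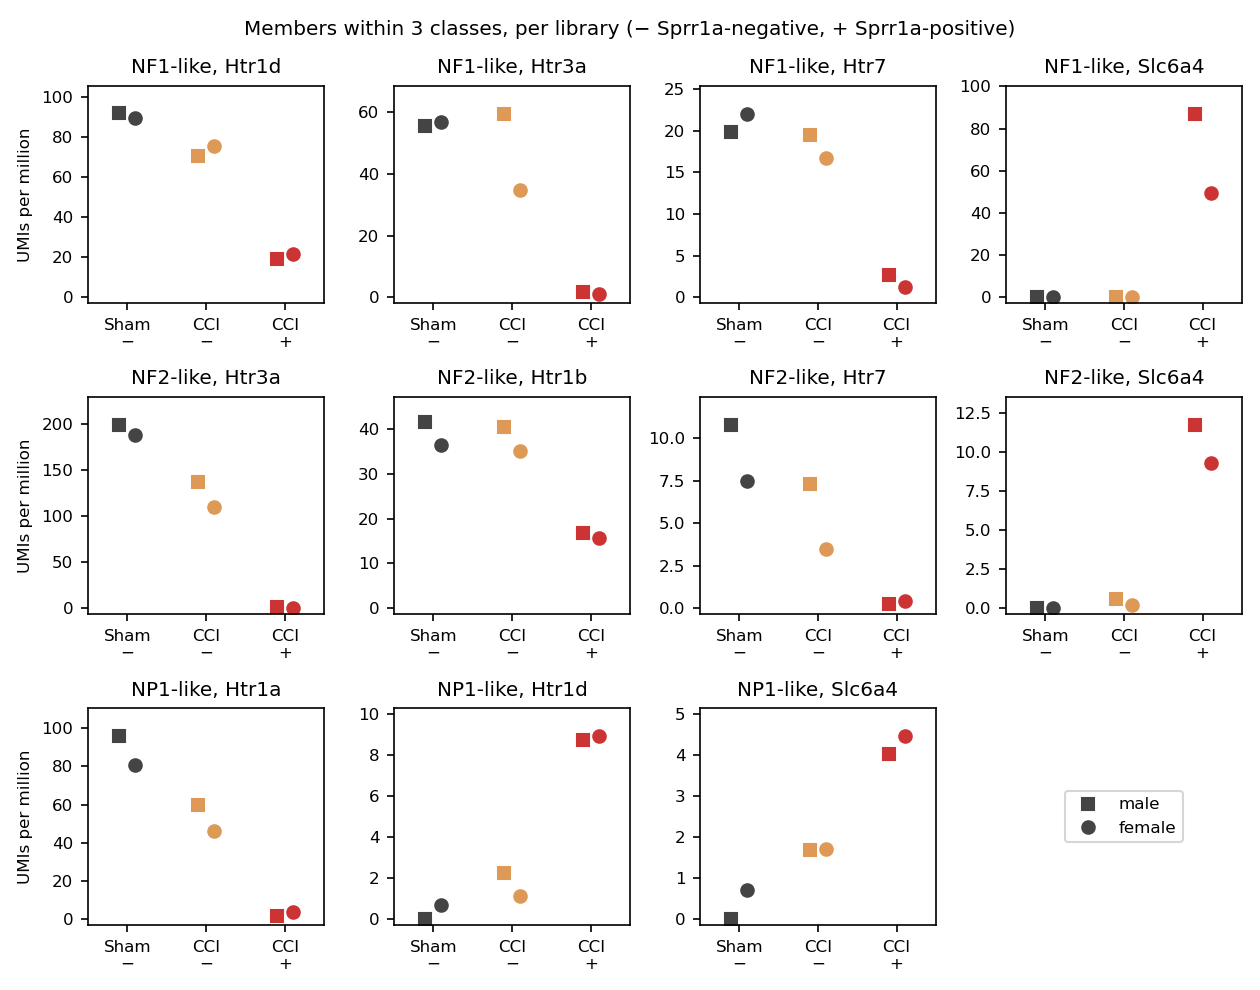
Members within NF1-like, NF2-like and NP1-like neurons, with CPM on a linear y axis, for Sprr1a-negative sham, Sprr1a-negative CCI and Sprr1a-positive CCI cells, 1 point per library. Htr3a in NF2 goes from 199 and 188 through 137 and 110 to 1.48 and 0.435, Htr1d falls in NF1 and rises in NP1, and Slc6a4 is above 1 UMI CPM in NF1 and NF2 only in Sprr1a-positive cells.

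The same classes were compared between Sprr1a-positive and Sprr1a-negative neurons of the same CCI libraries, a comparison added after the data were seen. Here 13 of 16 values were called, against 43.8% of genes in NF1-like, 35.6% in NF2-like and 23.9% in NP1-like neurons. In NF1-like neurons Htr3a (-4.84, SE 0.299, adjusted p = 1.84e-23), Htr7 (-2.76, SE 0.347, adjusted p = 2.26e-10) and Htr1d (-1.57, SE 0.153, adjusted p = 2.68e-14) were lower and Slc6a4 was 331-fold higher (counting interval 91.2 to 2742). In NF2-like neurons Htr3a was lower (-6.66, SE 0.227, adjusted p = 1.33e-19), and so were Htr1b (-1.04, SE 0.162, adjusted p = 3.32e-06) and Htr3b (at least 30.6-fold). In NP1-like neurons Htr1a was lower (-4.21, SE 0.281, adjusted p = 2.26e-07) and Htr1d higher (2.42, SE 0.486, adjusted p = 0.00141), while Slc6a4, with 6 UMIs in the Sprr1a-negative cells, was not called (1.36, adjusted p = 0.0938).

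Most Sprr1a-positive neurons of the other classes sat in CCI-induced clusters. When injury genes were left out of the clustering, a choice made after the data were seen, NP2-like, PEP1-like, PEP3/4-like and PEP5-like classes also held enough of them (100 and 132, 16 and 16, 34 and 66, and 129 and 149 cells), and 26 of 31 values were called over 7 classes. Among all genes 48% were called in NP2-like, 21% in PEP1-like, 34.1% in PEP3/4-like and 43.3% in PEP5-like neurons. For NF1-like, NF2-like and NP1-like neurons in this clustering the share is not given, so the count of 26 is not set against all genes. Most of these Sprr1a-positive cells lay outside the class in the main clustering, where PEP5-like neurons held 4 and 11 and NP2-like neurons 0 and 7. The values below thus also compare clusters, and the part of this mix was not tested. In PEP5-like neurons, the Trpm8-bearing class, Slc6a4 rose, at 0.7998 and 0.394 CPM in Sprr1a-negative and 78.4 and 53.4 in Sprr1a-positive CCI cells (log2 fold change 7.06, SE 0.234, adjusted p = 4.14e-190). Htr1a went the other way in this class, from 45 UMIs to 0, at least 18.1-fold lower (adjusted p = 5.69e-12).

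In NP2-like neurons Htr4, which was highest in this class, and Htr3b fell, and 2 members that were near 0 rose. Htr4 fell from 12.8 and 12.0 to 0.629 and 0.198 (-4.90, SE 0.386, adjusted p = 3.13e-09) and Htr3b from 180 UMIs to 0, at least 26.0-fold lower (adjusted p = 3.72e-08). Slc6a4 rose from 0.169 and 0.648 to 29.4 and 29.7 (6.13, SE 0.284, adjusted p = 1.87e-12) and Htr1d from 0.0845 and 0.463 to 6.29 and 5.55 (4.37, SE 0.527, adjusted p = 9.57e-07). In PEP1-like, PEP3/4-like and PEP5-like neurons, where Htr1d was also near 0 in sham, it had too few UMIs to be tested (1, 3 and 11 in Sprr1a-positive against 6, 4 and 3 in Sprr1a-negative cells).

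In PEP1-like and PEP3/4-like neurons Htr1a and Htr1b fell. In PEP1-like neurons Htr1a went from 640 UMIs to 1, 41.8-fold lower (counting interval 7.47 to 1652, adjusted p = 5.53e-09), and Htr1b from 59.6 and 62.5 to 15.9 and 18.5 CPM (-1.79, SE 0.255, adjusted p = 6.54e-08). In PEP3/4-like neurons Htr1b fell from 49.4 and 58.6 to 5.58 and 4.22 (-3.39, SE 0.215, adjusted p = 7.11e-27) and Htr1a from 507 UMIs to 0, at least 23.9-fold lower (adjusted p = 1.77e-16), and Htr3a went from 62 UMIs to 1 there, 8.76-fold lower (counting interval 1.51 to 351, adjusted p = 0.0194). Slc6a4 also rose in these classes, by 4.28 (SE 0.718, adjusted p = 2.69e-06) and 3.55 (SE 0.765, adjusted p = 5.21e-05), from 12 UMIs to 15 and from 8 to 13 UMIs in far fewer cells. Htr3a in PEP1-like neurons, at 55.4 and 32.5 against 1.76 and 39.9, differed more between its libraries than between states (adjusted p = 0.749).

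Slc6a4 was uneven among the clusters of the CCI libraries. It was highest in the CCI-induced cluster led by Ankrd1, Arg2 and Prss12 (73.2 and 52.6 CPM, in 45.0% and 39.9% of cells), of which it is itself a leading gene. It read 27.4 and 29.8 in the cluster led by Crh and Tmem144, 25.4 and 22.9 in that led by Anxa1, Krt16 and Tgfbi, 6.03 and 6.35 in that led by Wfdc3 and Flnc, and 2.52 and 2.13 in that led by Ly6a. The NF1-like class split as well, with 52.2 and 22.8 in the cluster led by Ntng1, Cadps2 and Car3 and 0 and 1.48 in the one led by Pvalb. Htr1d had another order among CCI-induced clusters, at 37.7 and 34.2 in the Crh cluster (81.7% and 71.0% of cells), 6.83 and 6.70 in the Anxa1 cluster, and at most 3.69 in the others.

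**Figure D5:**
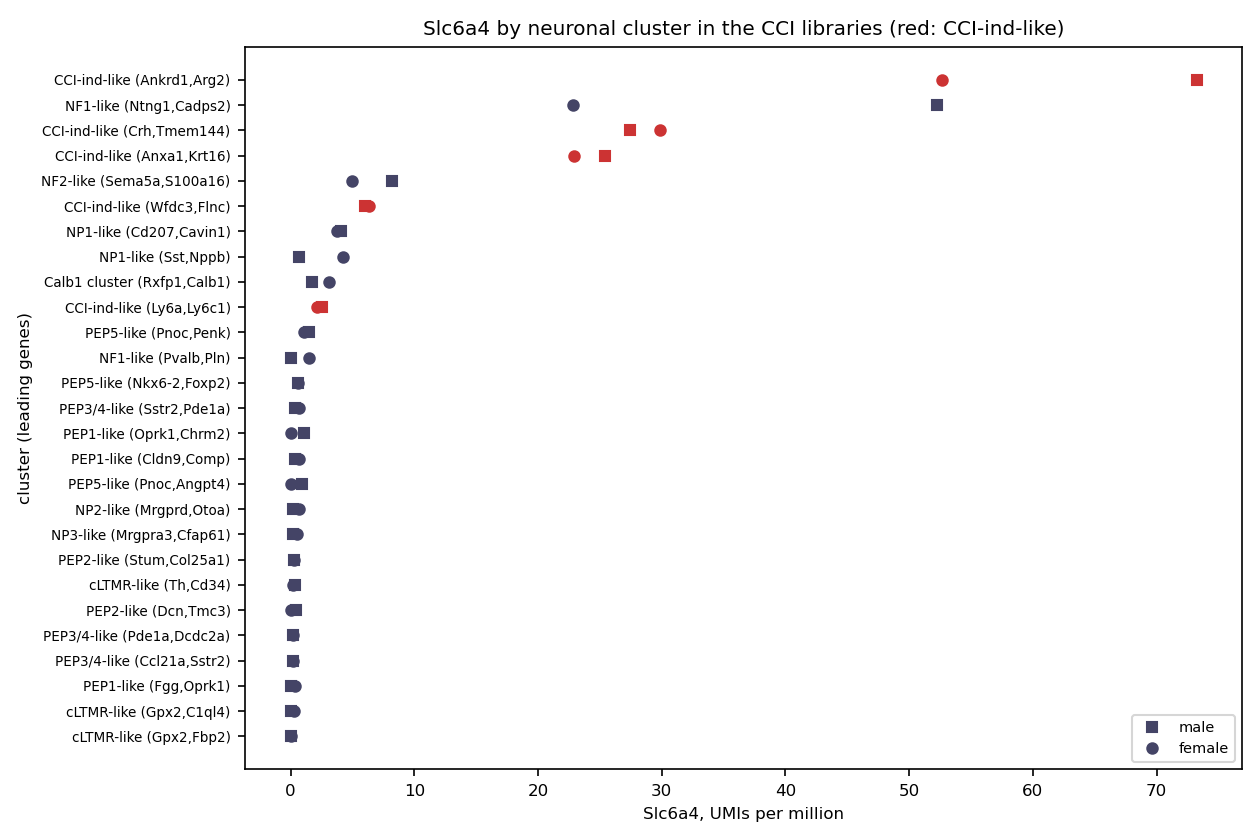
Slc6a4 level by neuronal cluster in the CCI libraries, with CPM on the value axis, 1 point per library and clusters named by their leading genes (red for CCI-induced clusters). The Ankrd1 cluster is highest at 73.2 and 52.6, the Ntng1 cluster of NF1 follows in the male library at 52.2, and the Pvalb cluster of NF1 reads 0 and 1.48.

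In Sprr1a-negative neurons compared by class, 4 of 35 member-by-class values were called. The shares of all genes called in either direction were 1.11% in NF1, 1.92% in NF2, 3.97% in NP1, 4.46% in NP2, 2.66% in NP3, 5.31% in PEP1, 4.31% in PEP2, 3.54% in PEP3/4, 3.35% in PEP5 and 1.71% in cLTMR. In 3 of the 4 calls a receptor was lower in the class where it was highest in sham. The count filter passed 1 of 9 members in NP1-like and in PEP5-like, 3 in NP2-like and 6 in NF2-like neurons. It passes a member most easily in a class where that member is high, so this pattern is partly set by the filter. Htr3a fell in NF2-like neurons from 199 and 188 to 137 and 110 CPM (-0.60, SE 0.106, adjusted p = 0.00983), Htr1a in NP1-like neurons from 95.7 and 80.5 to 59.8 and 46.2 (-0.75, SE 0.157, adjusted p = 0.00686), and Htr4 in NP2-like neurons from 17.1 and 18.2 to 12.8 and 12.2 (-0.52, SE 0.109, adjusted p = 0.00321). Within the Sst and Nppb cluster of NP1-like neurons, Htr1a read 95.9 and 87.7 in sham and 76.1 and 70.9 in CCI over all its cells, and in the Cd207 cluster, which held few sham cells, 11 and 20 UMIs in CCI (1.5003 and 2.91 CPM). These calls are fragile: without the Male-Sham library the adjusted p was 0.0569 for Htr3a and 0.145 for Htr1a, without Female-CCI the Htr3a change was -0.46, and without Female-Sham or Female-CCI that of Htr4 was -0.47 or -0.49. Among neurons with no Sprr1a UMI, Htr1a in NP1-like (-0.43, adjusted p = 0.364) and Htr4 in NP2-like neurons (-0.55, adjusted p = 0.0932) were not called.

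The only rise was of Htr1a in PEP5-like neurons, from 0.683 and 1.37 to 3.69 and 5.24 (2.02, SE 0.402, adjusted p = 0.0028), with a UMI in 2.01% and 2.85% of sham and 9.62% and 7.77% of CCI cells. Without the Female-CCI library the adjusted p was 0.132, and with predicted doublets kept the change was 0.74 (adjusted p = 0.140). The Htr1a change differed between NP1-like and PEP5-like neurons by -2.77 (adjusted p = 0.00179), where 0.936% of genes differed. Under the fold limit, Htr1b read 48.5 and 50.7 in sham and 60.01 and 64.5 in CCI in PEP1-like neurons (0.35, adjusted p = 0.00464), and 41.1 and 41.6 against 49.0 and 59.0 in PEP3/4-like neurons (0.38, adjusted p = 0.0102). Htr1d in cLTMR-like neurons had a log2 fold change of 0.00 (SE 0.0955, adjusted p = 0.999).

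The counts for other genes of the pathway stand beside 15.2% of all genes called higher and 12.7% lower. Of 15 other serotonin genes (receptors and enzymes or carriers of synthesis, storage, uptake and breakdown), 14 were tested in all neurons, and 2 were higher and 1 lower after CCI, with a median of 0.04. Slc29a4, a low-affinity monoamine transporter, read 19.6 and 20.0 in sham and 30.7 and 26.6 in CCI (0.59), and Htr2a, a Gq-coupled receptor, 4.44 and 3.57 against 6.02 and 5.28 (0.55). Htr5b fell from 2.87 and 2.66 to 0.947 and 0.938 (-1.50). Htr1f, the remaining Gi-coupled receptor of the triptan family, was not called (0.07, adjusted p = 0.841).

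Of 5 receptor partners, Tmem35a, a chaperone of ligand-gated channels, fell from 38.3 and 32.6 to 15.1 and 13.3 (-1.26), and Arrb1, a beta-arrestin, rose from 101 and 99.4 to 160 and 151 (0.69). Ric3, a chaperone of 5-HT3 assembly, changed by 0.24, under the limit. Of 23 signalling genes 1 was called higher, Rapgef3 (2.14), an exchange factor driven by cyclic AMP, and 4 were lower: Adcy1 (-0.67) and Adcy8 (-1.05), which make cyclic AMP, Prkacb (-0.51), a catalytic subunit of its kinase, and Plcb3 (-1.13), a phospholipase C. Between Sprr1a-positive and Sprr1a-negative CCI neurons, Rapgef3 was higher by 3.29 and 11 of 23 signalling genes were lower, against 20.9% of all genes higher and 24.7% lower.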

How the data were processed

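The deposited files were 4 matrices of raw UMI counts per gene and cell, which the authors made from 10x 3′ v3 libraries with Cell Ranger against mm10 (version 2.1.1 in the submitters' processing notes and 3.0.2 in the matrix headers). Cells with fewer than 1500 genes or over 10% mitochondrial UMIs were left out. Scrublet's own limit marked 0.519% of barcodes, so its highest scores were removed instead, in the numbers per library that the study removed (3731 in all). Libraries were integrated in Seurat 5.3.0 (3000 genes, 20 components, resolution 0.8), which gave 30 clusters, and 11 neuronal classes were named from fixed markers that include no serotonin gene. A neuron was Sprr1a-positive above 1 on the natural log scale of counts per 10000 plus 1.

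Counts were summed per library and cell group and tested with edgeR 4.0.16 (quasi-likelihood, TMM, filterByExpr) over all genes, with Benjamini-Hochberg adjustment and calls at an adjusted p under 0.05 and a log2 fold change over 0.5. Sprr1a-positive and Sprr1a-negative sums of the same library were compared with library as a block. Folds against 0 UMIs use 3 UMIs over the group, and the 95% intervals cover counting error only. Other normalizations, filters, limits, clusterings and libraries were tried. A class was tested where each library gave at least 10 cells. The script was tested on simulated data. All adjusted p-values are from edgeR unless another tool is named. Each library is a pool of animals, and the p-values of CCI against sham measure the spread between 2 pools of different sex. Those within CCI, with library as a block, measure how the difference between states varies between the 2 CCI libraries. They leave few residual degrees of freedom and lean on dispersion estimates shared across genes, so very small values among them do not measure replication over animals. The members, the gene lists and the tests were chosen with earlier results of these data known.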

Additional observations from a re-analysis of the deposited data

Results flagged for a closer look

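Several members changed differently between classes from Sprr1a-negative sham to Sprr1a-positive CCI neurons, in a test of the difference itself. For Htr1d, on the log2 scale, the change was higher in NP1-like than in NF1-like neurons by 6.72 (edgeR adjusted p = 6.87e-11), higher in NP1-like than in NF2-like neurons by 4.64 (adjusted p = 1.52e-05), and the NF1-like minus NF2-like difference was -2.08 (adjusted p = 0.000187). The same test gave an NF1-like minus NF2-like difference of 2.14 for Htr3a (adjusted p = 0.0146) and of 1.44 for Htr1b (adjusted p = 0.0244). The test also called NP1-like minus NF1-like differences for Slc6a4 (-8.24, adjusted p = 0.00377) and Htr3b (5.31, adjusted p = 0.0402) and NP1-like minus NF2-like differences for Htr3a (5.52, adjusted p = 0.00944), Htr3b (8.54, adjusted p = 0.00881) and Htr7 (7.55, adjusted p = 0.0357), whose sizes depend on a prior count because a group of NP1-like, NF1-like or NF2-like neurons held at most 4 UMIs. The sizes of the Htr1d differences with NP1-like neurons depend on it too, since the Sprr1a-negative sham cells of that class held at most 4 Htr1d UMIs. In Sprr1a-negative neurons the Htr1a change between sham and CCI differed between NP1-like and PEP5-like neurons by -2.77 (adjusted p = 0.00179). NP1-like cells lie mostly in different clusters in sham and CCI. Over all cells, the Sst and Nppb cluster held 0 Htr1d UMIs in every library. The Cd207 cluster read 2.67 and 4.64 CPM of Htr1d in sham and 8.87 and 8.45 in CCI. The part of the clusters in the Htr1a and Htr1d values of the class was not tested.

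A second kind of value lies outside the comparisons, in the few Sprr1a-positive neurons of sham mice. Slc6a4 read 17.1 CPM in the 42 such neurons of the male library and 14.0 in the 144 of the female library, from 43 and 84 UMIs. A UMI was found in 40.5% and 29.9% of these cells, against 0.0309% and 0.0952% of the Sprr1a-negative sham neurons.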

How the results depend on the processing

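Of 918 values for single members under an alternative, 856 kept their direction and their side of the thresholds, 30 became calls, 23 lost a call and 9 changed sign. The number of members called in all neurons was 6 and ran from 6 to 7 with 1 library left out, and in Sprr1a-positive CCI against Sprr1a-negative sham neurons it was 14 throughout (14 to 14). In Sprr1a-negative neurons it was 2, and was 1 with doublets kept, 6 with any Sprr1a UMI as positive and 1 to 4 with 1 library left out. By class in Sprr1a-negative neurons it was 4, and was 1 with DESeq2 (Htr3a in NF2-like neurons; Htr4 in NP2-like neurons had an adjusted p of 0.0509, and DESeq2 gave none for Htr1a in NP1-like and PEP5-like neurons), 11 with no filter on low counts, 7 with doublets kept and 1 to 9 with 1 library left out, the 1 without Female-CCI and the 9 without Male-CCI. Within CCI by class it was 13, and was 24 with doublets kept, 26 with injury genes left out of the clustering and 5 with any Sprr1a UMI as positive. These clusterings and limits also test more values. The share of all genes called is not given here for each alternative, so the counts do not show a stronger or weaker effect on the members.

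All 9 values that changed sign were near 0 under the alternative. With 1 library left out, the log2 fold changes in Sprr1a-negative neurons ran from -0.53 (without Male-CCI) to 0.0379 (without Female-CCI) for Htr3a, from -0.37 to 0.0290 for Htr3b and from -0.71 to 0.0565 for Htr7, and those of Htr3a from -0.60 to 0.0118 in PEP1-like and from -1.22 to 0.0469 in PEP2-like neurons, without the same libraries. Without cells of a shared barcode they were Htr7 (0.101) and, in PEP1-like neurons, Htr3a (0.0529). With any Sprr1a UMI as positive they were Htr3a within CCI (0.0570) and Htr3b in PEP1-like Sprr1a-negative neurons (-0.143). The cause was not tested.

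Without cells of a shared barcode, an alternative added after the data were seen, 6 members were called in all neurons, 2 in Sprr1a-negative neurons, 7 within CCI, 6 by class in Sprr1a-negative neurons and 14 between Sprr1a-positive CCI and Sprr1a-negative sham neurons. With sex as replicate block the same comparisons of CCI with sham gave 6, 2, 6 and 14 calls, the 2 further calls by class being Htr3b in NF1-like (-0.62) and Htr1a in PEP2-like neurons (-1.001). For both alternatives the share of all genes called is not given, so these counts too show no stronger or weaker effect on the members. The sexes share no animal, and the male deviations from the group means correlated between sham and CCI (r = 0.657 over 10433 genes), so the pairs share only a sex. Leaving out a library within CCI left no residual degrees of freedom and was not run. The leading sham class was the same for all 8 members under each clustering, and for 7 after each cell was thinned to 2000 UMIs. Where a library is left out, the lone library of its surgery is assumed to vary like those of the other. Htr2b had too few UMIs for any of these tests.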

Other observations

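Within the CCI-induced clusters, Slc6a4 and Htr1d were already present in the few sham cells found there. Slc6a4 read 16.2 and 14.2 CPM in sham and 24.2 and 20.1 in CCI, and Htr1d 15.4 and 13.3 in sham and 9.14 and 8.35 in CCI. The sham cells number 44 and 139 and the clusters hold them in other proportions than the CCI cells, so these values are not compared by a test. Among genes outside the members, Htr1f rose in NF1-like neurons from Sprr1a-negative sham to Sprr1a-positive CCI cells (log2 fold change 2.18) and fell in NP1-like neurons (-2.15).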
